A study of Homo sapiens with 28 samples.

Results

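The 468 nM response of CHL-1 melanoma cells to the BET inhibitor BAY1238097 was compared between 24 h and 4 h. For each gene the quantity of interest was the interaction, that is, the difference between 468 nM and DMSO arrays at 24 h minus the same difference at 4 h. The arrays were chosen by their titles: 18 of the 28 arrays of the series, with 4 DMSO arrays and 5 arrays at 468 nM at 4 h, and again 4 and 5 at 24 h. The other 10 arrays, 5 at each time, were of cells given 75 nM. They serve as another dose, and they also enter the intensity filter, the choice of probe sets and the spread estimated in the fit. CHL-1 is an established human melanoma line, all arrays share this line, its serum-supplemented medium and seeding on the day before treatment, and the controls received the DMSO vehicle alone. The design text gives 75 nM as the IC50 and 468 nM as the IC90 of the compound in these cells. Total RNA was hybridised to Affymetrix arrays, and one cultured line without stroma or immune cells limits what the comparison stands for. The labels do not tell separate cultures from repeat arrays of one culture, and the p-values reflect the spread between these arrays alone, which may be technical.

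BET proteins bind acetylated histones through their bromodomains and help recruit P-TEFb, the kinase that releases paused RNA polymerase II. BET inhibitors occupy the bromodomains, and genes fed by strong enhancers, MYC among them in many tumours, are known to lose transcription soon after they are given. HEXIM1, which holds P-TEFb in an inactive complex, is a commonly used marker of the response. An early time point is closer to the direct loss of BET function, and a later one also carries what follows from it, including arrest of the cell cycle.

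Values are log2 intensities of one probe set per gene, and 9285 genes with a log2 intensity above 5 on at least 4 arrays were tested with limma, calling a gene at a Benjamini-Hochberg adjusted p under 0.05. On the first principal component of the 18 arrays, which held 45.0% of the variance, the 468 nM 24 h arrays stood at 38.2 to 48.4 and the other 13 arrays at -26.3 to -6.9. Genes that passed the intensity filter are called measured, here and in the gene lists below. Of 12 melanoma markers on the array 7 were measured, SOX10 and CSPG4 among them. For keratinocytes 0 of 8 markers on the array were measured, for endothelial cells 0 of 9, and for fibroblasts and leukocytes 1 of 9 each. In such bulk samples, fewer cells of a kind and less RNA per cell cannot be told apart. The deposited values carry the distribution that RMA imposes on every array, so a shift shared by all genes is not visible in them.

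The 468 nM effect at 24 h differed from that at 4 h for 2184 of 9285 genes (23.5%), of which 1005 (10.8%) had the higher effect at 24 h and 1179 (12.7%) the lower. A difference of at least 2-fold was reached by 239 of the former and 449 of the latter. Median interaction over all genes tested was 0.01. Centring the arrays on 9 reference genes moved that median to 0.12 and turned the split to 1112 higher and 749 lower, so 59.8% of calls were higher in place of 46.0%. The reference genes changed too, with 3 called higher and 4 lower at 24 h and 2 with a called lower interaction. Centring therefore carries their own changes into every gene. At 4 h the effect itself was called for 1013 genes (10.9%, with 3.96% higher and 6.95% lower), and for 350 of these the interaction was called as well. At 24 h it was called for 4231 genes (45.6%; 20.4% higher and 25.1% lower), 1912 of them with the interaction. A further 449 genes were called at both times in the same direction with no called interaction.

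Genes with a called interaction were sorted by their calls at each time. Late-only genes, called at 24 h and not at 4 h, were the most frequent, at 1743 (79.8% of the interaction calls): 733 higher and 1010 lower at 24 h. Early-only genes, called at 4 h and not at 24 h, numbered 181, of which 54 were higher and 127 lower at 4 h. Reversing genes, called at both times with opposite signs, numbered 60, with 39 lower at 4 h and higher at 24 h and 21 the other way. In 77 genes the effect kept its sign and was larger at 24 h (growing), in 32 it kept its sign and was smaller (waning), and 91 genes had an interaction but no call at either time. These classes were built from the same contrasts that they describe, so the counts and class medians carry no test of their own.

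**Figure D1:**
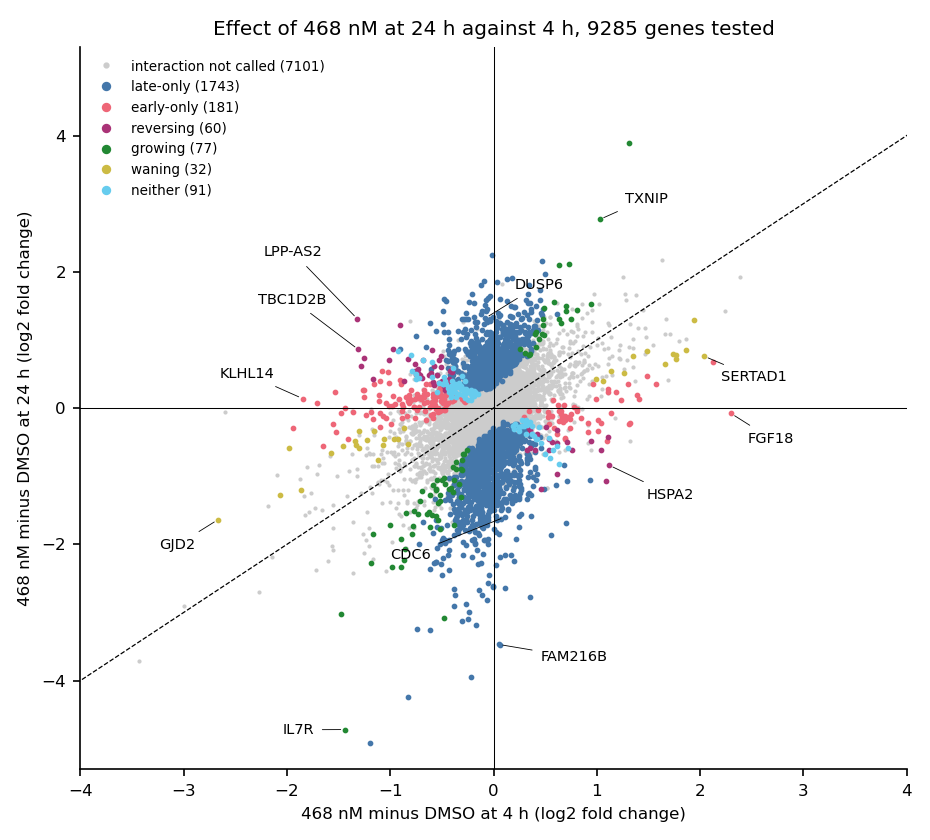
Effect of 468 nM against DMSO at 4 h (horizontal, log2 fold change) and at 24 h (vertical, log2 fold change) for each of the 9285 genes tested, coloured by time class, with the dashed line marking equal effects. The 1743 late-only genes lie along the vertical axis, the 181 early-only genes along the horizontal axis, and the 60 reversing genes at upper left and lower right.

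Reversal was clearest in TBC1D2B, a Rab GTPase-activating protein. Its 4 h DMSO arrays read 8.54, 8.45, 8.35 and 8.28 and its 468 nM arrays 6.87, 7.07, 7.61, 7.17 and 6.75. At 24 h the DMSO arrays read 8.2, 8.18, 8.17 and 8.09 and the 468 nM arrays 8.87, 9.39, 9.03, 8.85 and 8.95. Groups did not overlap at either time, with every treated array below its controls at 4 h and above them at 24 h. The effect was -1.31 ± 0.14 (SE) at 4 h and 0.86 ± 0.14 at 24 h, an interaction of 2.17 ± 0.20 (limma adjusted p = 3.66e-08). Another gene of this direction was LPP-AS2, a non-coding RNA antisense to LPP (-1.32 and 1.31), although an antisense transcript and its partner are told apart only by the strand of the probes.

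SOX10, the neural crest factor that keeps melanocyte identity, fell and then rose. It read 9.69, 9.55, 9.59 and 9.61 in DMSO and 8.92, 8.83, 8.75, 8.82 and 9.08 at 468 nM after 4 h. After 24 h it read 9.24, 9.37, 9.67 and 9.64 in DMSO and 10.39, 10.37, 9.99, 9.55 and 10.02 at 468 nM. The early groups were separate, and at 24 h replicate 4 of the treated arrays lay among the controls. The interaction was 1.31 ± 0.19 (adjusted p = 2.26e-05), from -0.73 ± 0.13 at 4 h to 0.58 ± 0.13 at 24 h.

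The probe set of MIR4534, a microRNA gene beside SOX10, followed the same order and is shown with its mature sequence because it was the one microRNA gene that the naming rule chose. RefSeq (GRCh38.p14) places the mature form at chr22:37988829-37988845 on the plus strand, and the seed, bases 2 to 8, is in capitals.
hsa-miR-4534: gGAUGGAGgaggggucu
The array reads RNA of the locus and does not separate the mature 17-base form from a longer transcript. Its DMSO arrays read 5.59, 5.92, 5.59 and 5.33 at 4 h against 4.67, 4.62, 4.75, 4.37 and 5.06 at 468 nM. They read 5.59, 5.51, 6.22 and 5.65 at 24 h against 7.12, 7.37, 6.85, 7.21 and 6.25. Neither time showed overlap, and the interaction was 2.13 ± 0.37 (adjusted p = 0.000195). The 4 h fall, -0.91 (adjusted p = 0.0233), missed the threshold without DMSO 4 h replicate 1, 2 or 3 or 468 nM 4 h replicate 4 (up to 0.0862 without replicate 2) and with no filter on low values (0.0701).

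The opposite order, a rise and then a fall, was seen in 21 genes. HERPUD1, a membrane protein of endoplasmic reticulum-associated degradation, read 7.21, 7.3, 7.38 and 7.44 in DMSO and 7.94, 7.84, 8.17, 7.95 and 7.79 at 468 nM after 4 h. After 24 h the order turned, with 8.28, 8.47, 8.32 and 8.17 in DMSO and 7.47, 6.98, 7.45, 7.32 and 7.48 at 468 nM. No groups overlapped at either time, but the controls themselves rose by 0.98 (adjusted p = 3.89e-05) while the treated arrays fell by 0.60. The interaction was -1.58 ± 0.16 (adjusted p = 2.32e-07).

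BAG3, a co-chaperone of HSP70 and a heat shock factor target, went the same way. At 4 h it read 6.26, 6.28, 6.23 and 6.58 in DMSO and 7.1, 7.29, 7.42, 7.26 and 7.34 at 468 nM. At 24 h it read 6.84, 7.1, 6.84 and 7.07 in DMSO and 6.29, 6.61, 6.5, 6.38 and 6.62 at 468 nM. Treated and control arrays were separate at both times, in opposite order. The effects were 0.94 ± 0.10 and -0.48 ± 0.10 (interaction adjusted p = 9.47e-08), and here too the DMSO arrays rose over time, by 0.62. CSRNP1, a nuclear protein of the early response group, changed from 0.76 to -0.61.

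Further reversing genes of this direction were E2F7, a repressor of the E2F family, and VDR, the vitamin D receptor, both chosen after their values were seen. E2F7 had effects of 0.54 at 4 h and -0.61 at 24 h, the first of which lost its call when arrays were centred on reference genes (0.0577). VDR had 1.04 and -0.61, the second of which lost its call without DMSO 24 h replicate 3 (0.0671) or 468 nM 24 h replicate 5 (0.0632). In HSPA2, an HSP70 family member, the effects were 1.12 and -0.84, with the late call lost without DMSO 24 h replicate 2 (0.0562).

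**Figure D2:**
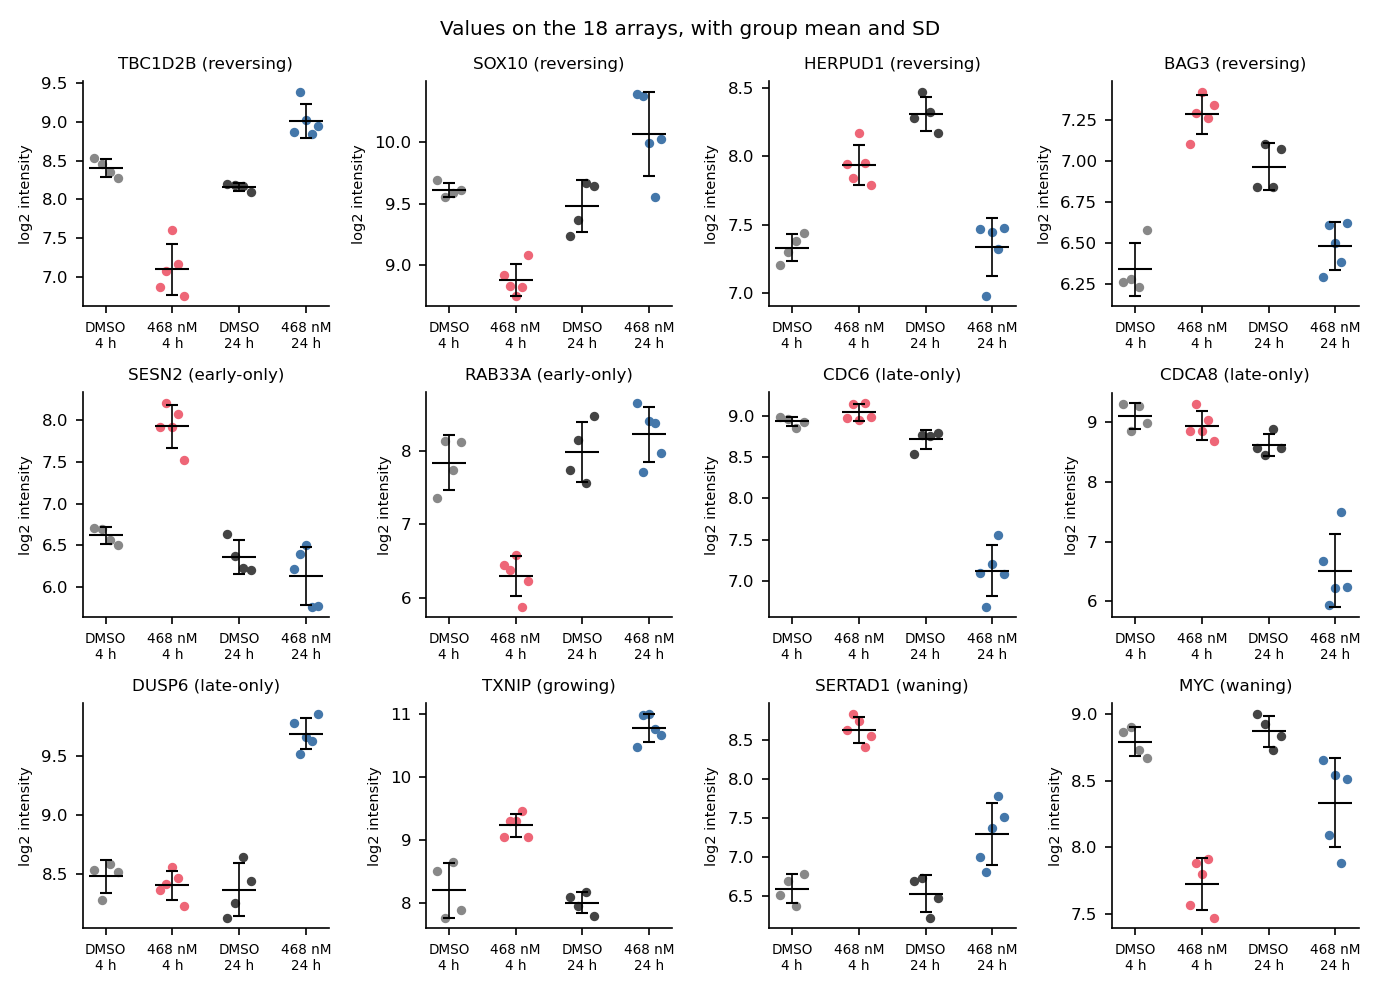
Log2 intensity of 12 genes on each of the 18 arrays by group (points), with the group mean and SD (black bar and whiskers) and the time class in each panel title; vertical axes differ between panels. TBC1D2B and SOX10 lie below DMSO at 4 h and mostly above it at 24 h, HERPUD1 and BAG3 the reverse, and CDC6, CDCA8 and DUSP6 part from DMSO at 24 h with overlapping groups at 4 h.

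Early-only responses were more often falls than rises, 127 against 54, as were all 4 h calls (6.95% of genes lower and 3.96% higher). Among the rises was SESN2, a stress-induced inhibitor of mTORC1 signalling. Its 4 h arrays read 6.71, 6.7, 6.57 and 6.5 in DMSO and 7.92, 8.21, 7.92, 8.07 and 7.52 at 468 nM. Its 24 h arrays read 6.64, 6.37, 6.23 and 6.2 in DMSO and 6.22, 6.4, 6.5, 5.76 and 5.77 at 468 nM. Separate groups at 4 h thus met overlapping groups at 24 h, with effects of 1.31 ± 0.16 and -0.23 ± 0.16 (interaction adjusted p = 3.11e-05). DNMT3B, a de novo DNA methyltransferase, had effects of 1.32 and -0.22, and PMAIP1, which encodes the pro-apoptotic protein NOXA, 1.10 and -0.48. Both are early-only with a reservation: the 24 h value passed the threshold in DNMT3B without 468 nM 24 h replicate 1 (0.0349), and in PMAIP1 without that array (0.0391), without 468 nM 24 h replicate 4 (0.0295), without DMSO 24 h replicate 4 (0.00331) or with the replicate block (0.0327).

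Further early-only rises are given singly. NFKBIE, an inhibitor of NF-kB, had 1.23 ± 0.20 at 4 h and 0.12 ± 0.20 at 24 h. Of its list of NF-kB targets 1 of 16 members rose at 4 h and 6 fell, beside 3.96% and 6.95% of all genes. NKD1, a negative regulator of Wnt signalling, had 1.01 and -0.34. JUNB, an AP-1 subunit chosen after its values were seen, had 0.85 and -0.15. MED26, the Mediator subunit that docks elongation complexes, had 0.69 and -0.11. GADD45B, a stress-induced growth arrest gene also chosen after its values were seen, had 0.99 and 0.13.

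Among early-only falls, RAB33A, a small GTPase of vesicle traffic, read 7.36, 8.14, 7.74 and 8.13 in DMSO and 6.44, 6.37, 6.58, 5.87 and 6.23 at 468 nM after 4 h. After 24 h it read 7.74, 8.15, 7.57 and 8.48 in DMSO and 8.66, 7.72, 8.41, 8.38 and 7.98 at 468 nM. All treated arrays were below all controls at 4 h, and the groups overlapped at 24 h. The effect went from -1.54 ± 0.21 to 0.24 ± 0.21 (interaction adjusted p = 0.000128). KLHL14, a Kelch-family protein, went from -1.85 to 0.14. PRICKLE2, a planar cell polarity protein, went from -1.94 to -0.29, but its other probe set, at a mean of 3.38, gave an interaction of -0.66 in place of 1.65.

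ZEB2, a transcription factor of the melanocyte lineage, belonged to the same class. It read 6.3, 6.31, 5.55 and 6.05 in DMSO and 4.85, 4.74, 5.11, 4.73 and 5.01 at 468 nM at 4 h. It read 6.04, 5.79, 6.12 and 5.72 in DMSO and 5.9, 6.12, 5.34, 5.53 and 5.92 at 468 nM at 24 h. The 4 h groups were fully apart and the 24 h groups mixed, with effects of -1.17 ± 0.17 and -0.16 ± 0.17 (interaction adjusted p = 0.00296).

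SETDB1, a histone H3 lysine methyltransferase, read 6.6, 6.22, 6.46 and 6.55 in DMSO and 5.63, 5.5, 5.61, 5.49 and 5.78 at 468 nM at 4 h. At 24 h it read 6.64, 6.59, 6.5 and 6.38 in DMSO and 6.72, 6.61, 6.66, 6.66 and 6.79 at 468 nM. Every treated array was below every control at 4 h, and the groups overlapped at 24 h, with effects of -0.85 ± 0.10 and 0.16 ± 0.10 (interaction adjusted p = 1.52e-05). BCL2L1, the gene of the survival protein BCL-XL, went from -0.70 to 0.13. KLF6, a zinc finger transcription factor, ORC5, a subunit of the origin recognition complex, and FANCF, of the Fanconi core complex, all chosen after their values were seen, went from -0.95 to 0.06, from -0.66 to -0.05 and from -0.92 to 0.13.

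Late-only falls took in most of the measured cell cycle genes. Of 70 measured members of a mitosis and kinetochore list, 67 had a lower effect at 24 h than at 4 h and 0 a higher one, with a median interaction of -1.28 beside 0.01 over all genes and 12.7% of them called lower. In the DNA replication list 42 of 58 members were lower and 1, ORC5, higher (median -0.96). The G1/S and E2F list had 14 of 21 lower and 0 higher (median -0.66), and the recombination, Fanconi and checkpoint list 12 of 29 lower and 2 higher (median -0.48). At 4 h 3 mitosis members and 5 replication members had fallen and 0 of either had risen, where 6.95% of all genes had fallen. The histone genes, whose transcription follows S phase, had 10 of 21 members lower and 1, H2BC18, higher. Of the 4 groups compared, H2BC18 had a mean above the filter's log2 of 5 only at 468 nM at 24 h. Its call is therefore no support for a rise, and it is also among the rises counted next. In this list 6 members rose at 4 h and 0 fell, where 3.96% of all genes rose and 6.95% fell. At 24 h 6 were higher and 8 lower, beside 20.4% and 25.1% of all genes. Near-identical copies make single members uncertain.

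CDC6, which loads the replicative helicase at origins, showed no separation at 4 h. Its values were 8.99, 8.96, 8.85 and 8.93 in DMSO and 8.97, 9.14, 8.95, 9.16 and 8.99 at 468 nM. At 24 h they were 8.54, 8.77, 8.76 and 8.79 in DMSO and 7.09, 6.68, 7.2, 7.55 and 7.08 at 468 nM. Groups that overlapped at 4 h were thus fully separate at 24 h. The effects were 0.11 ± 0.11 and -1.60 ± 0.11 (interaction adjusted p = 4.92e-08). GINS2, a subunit of the same helicase, had an interaction of -1.86, ORC1, of the origin recognition complex, -1.60, and TYMS, which makes thymidylate, -1.53.

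CDCA8, which encodes borealin of the chromosomal passenger complex, read 9.3, 8.84, 9.26 and 8.98 in DMSO and 8.84, 9.29, 8.85, 9.03 and 8.67 at 468 nM after 4 h. After 24 h it read 8.56, 8.44, 8.87 and 8.56 in DMSO and 6.67, 5.94, 6.22, 7.49 and 6.24 at 468 nM. The groups were mixed at 4 h and separate at 24 h, where replicate 4 of the treated arrays had fallen least. Its interaction was -1.93 ± 0.31 (adjusted p = 7.4e-05). ESPL1, the separase that cuts cohesin at anaphase, had -1.72, and MKI67, AURKB and CDC20, a proliferation antigen, a passenger complex kinase and an activator of the anaphase-promoting complex chosen after their values were seen, had -1.54, -1.60 and -1.37. The 3 members not called were CENPK (-0.68, adjusted p = 0.0746), BUB3 (-0.33, 0.0926) and UBE2S (-0.62, 0.199). All of them passed without 468 nM 24 h replicate 4, at 0.000265, 0.0266 and 0.0448, and CENPK also without DMSO 24 h replicate 1 (0.0487). CENPK (0.0424) and BUB3 (0.0467) passed with the replicate block as well. These 3 were named because they were the exceptions.

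**Figure D3:**
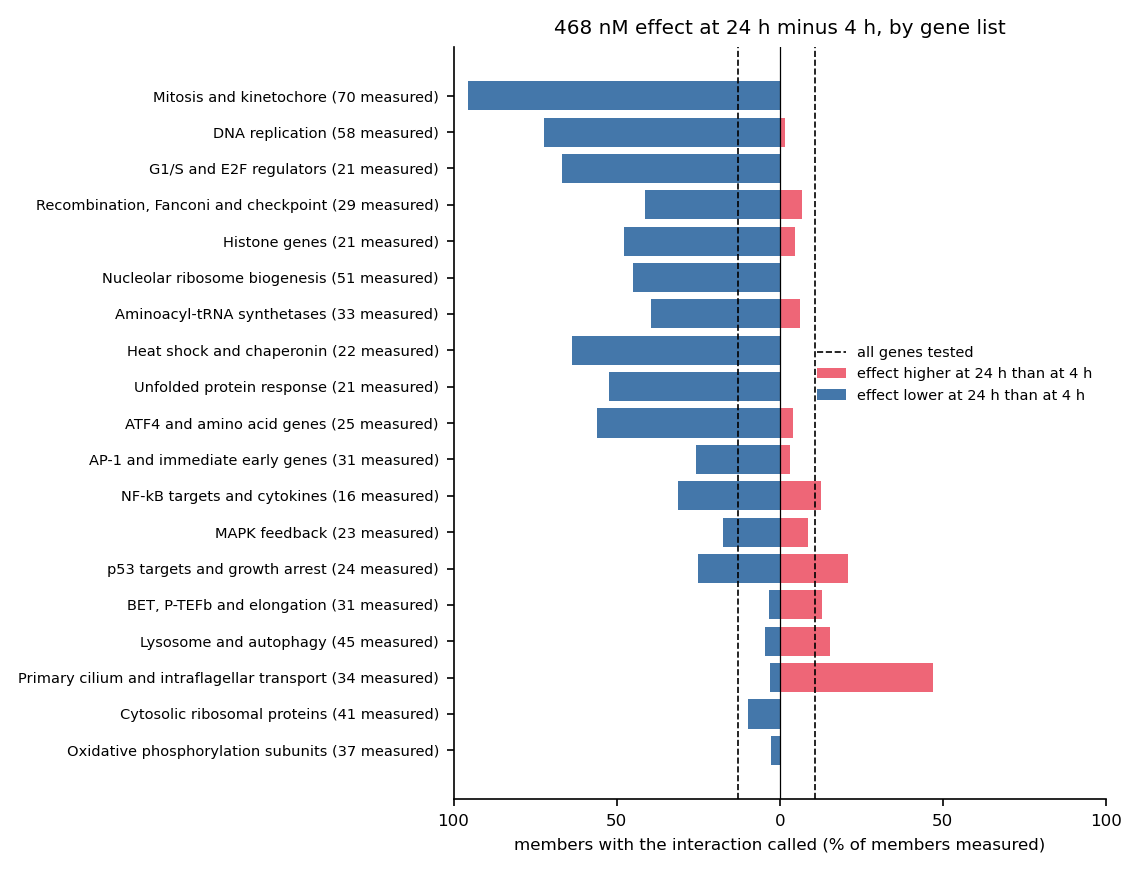
Share of the measured members of 19 gene lists with a called interaction, higher at 24 h to the right and lower to the left (percent of members measured), with dashed lines at the shares over all genes tested (10.8% and 12.7%). The bar of the mitosis list, 67 of 70 members, reaches furthest to the left and that of the primary cilium list, 16 of 34 members, furthest to the right.

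In the G1/S list the lowest interaction was that of E2F8, a repressor that E2F factors induce, at -2.61 ± 0.22 (adjusted p = 1.91e-08). Its small 4 h fall, -0.48 (adjusted p = 0.0494), kept its call under 9 of 26 alternative settings. E2F1, the activator of the family, had -1.40 ± 0.24, and CDC25A, the phosphatase that activates CDK2, -1.38 ± 0.16. Both cyclin E genes, chosen after their values were seen, had positive 4 h effects that missed the test (CCNE1 0.32 and CCNE2 0.26) and fell at 24 h (-0.77 and -0.91). In the recombination list RAD54L, a DNA translocase of homologous recombination, had -1.65, and EXO1, an exonuclease, -1.27.

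Promoters of 4 mitosis genes are printed because they carry a motif known from late cell cycle promoters, the cell cycle genes homology region (CHR), which the DREAM and MuvB complexes bind. Sequences are the 150 bases before the RefSeq transcription start on GRCh38.p14, in the direction of transcription, with the CHR (TTTGAA or TTCGAA, either strand) and CCAAT boxes (CCAAT, either strand, bound by NF-Y) in capitals. They are CDCA8 at chr1:37692366-37692515 on the plus strand, ESPL1 at chr12:53268149-53268298 on the plus strand, CCNB2 at chr15:59104996-59105145 on the plus strand and PLK1 at chr16:23678739-23678888 on the plus strand.
CDCA8: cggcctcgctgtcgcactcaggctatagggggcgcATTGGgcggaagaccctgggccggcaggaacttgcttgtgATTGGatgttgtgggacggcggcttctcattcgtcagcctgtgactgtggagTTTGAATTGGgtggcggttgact
ESPL1: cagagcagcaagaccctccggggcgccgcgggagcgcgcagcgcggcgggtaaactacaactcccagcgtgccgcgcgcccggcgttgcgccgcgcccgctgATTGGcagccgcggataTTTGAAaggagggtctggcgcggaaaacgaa
CCNB2: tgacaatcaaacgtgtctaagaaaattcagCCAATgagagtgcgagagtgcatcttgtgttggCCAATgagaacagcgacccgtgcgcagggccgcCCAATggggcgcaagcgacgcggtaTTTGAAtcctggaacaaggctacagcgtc
PLK1: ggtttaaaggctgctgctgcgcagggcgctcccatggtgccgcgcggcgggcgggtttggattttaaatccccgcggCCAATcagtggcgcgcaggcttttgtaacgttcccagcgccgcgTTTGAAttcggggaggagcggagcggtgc
In these promoters the CHR began 23, 31, 29 and 29 bases before the start, and in CDCA8 it shares 1 base with a CCAAT box. Cyclin B2, the product of CCNB2, activates the mitotic CDK1, and the kinase PLK1 drives mitotic entry. Their interactions were -1.16 and -1.33, and both were chosen after their values were seen.

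Over the 250 bases upstream, the CHR was present in 27 of 61 mitosis promoters (44.3%), 2 of 51 DNA replication promoters (3.92%), 135 of 832 late-only falling genes (16.2%) and 743 of all 7506 genes tested that matched a RefSeq promoter (9.90%). The CCAAT box was present in 43 of the mitosis promoters (70.5%), 29 of the DNA replication promoters (56.9%) and 27 of 44 early-only rising genes (61.4%), beside 36.1% of all. Similar shares were held by waning rises (6 of 10), growing rises (11 of 20) and genes that rose and then fell (10 of 19). Late-only rises had 31.7% and late-only falls 42.8%. Early-only falls had 32.4%, growing falls 33.3%, waning falls 42.9% and genes that fell and then rose 27.6%. A match describes the letters only and is not a measured binding site.

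Genes of protein folding and amino acid supply also had lower effects at 24 h. Over all genes 12.7% were called lower and 10.8% higher. In the heat shock and chaperonin list 14 of 22 members were lower and 0 higher (median -0.49), in the unfolded protein response list 11 of 21 and 0 (median -0.34), and in the ATF4 and amino acid list 14 of 25 and 1 (median -0.67). Counts of the first pair were sensitive to scaling: with arrays centred on reference genes they were 7 and 6. The unfolded protein response count was 7 without 468 nM 4 h replicate 1, DMSO 4 h replicate 3, DMSO 24 h replicate 1 or DMSO 24 h replicate 2.

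XBP1, the transcription factor spliced by the stress sensor IRE1, read 7.98, 8.22, 7.78 and 8.27 in DMSO and 8.09, 7.67, 8.19, 7.76 and 7.74 at 468 nM at 4 h. It read 8.46, 8.53, 8.64 and 8.62 in DMSO and 7.42, 7.45, 7.3, 7.45 and 7.58 at 468 nM at 24 h. The groups were mixed early and apart late, as the controls rose by 0.50 and the treated arrays fell by 0.45. The interaction was -0.95 ± 0.18 (adjusted p = 0.000347). SDF2L1, a chaperone partner in the endoplasmic reticulum, had -1.55, and EIF2AK3, the sensor kinase PERK, -1.08. HSPA5, the chaperone BiP, chosen after its values were seen, had -0.45 (adjusted p = 0.00406; 0.122 when centred on reference genes).

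Promoters of XBP1 and HSPA5 are shown because both hold the endoplasmic reticulum stress element (CCAAT and CCACG with 9 bases of any kind between them, either strand), which contains a CCAAT box and is known to bind NF-Y with ATF6 or XBP1. The motif was added to the search after values were seen. It is in capitals in the 150 bases before the RefSeq starts on GRCh38.p14, XBP1 at chr22:28800570-28800719 and HSPA5 at chr9:125241344-125241493, both on the minus strand and both written in the direction of transcription.
XBP1: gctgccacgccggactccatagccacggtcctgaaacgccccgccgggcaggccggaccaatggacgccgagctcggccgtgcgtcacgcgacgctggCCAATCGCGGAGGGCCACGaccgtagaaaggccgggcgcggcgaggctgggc
HSPA5: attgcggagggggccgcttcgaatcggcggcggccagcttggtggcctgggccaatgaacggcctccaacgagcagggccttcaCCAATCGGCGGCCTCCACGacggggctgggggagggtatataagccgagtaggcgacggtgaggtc
The element was found in 5 of 21 promoters of the unfolded protein response list (23.8%) and 10 of 7506 of all (0.133%). Besides these it was held by CANX (interaction -0.32, adjusted p = 0.0309), CALR (-0.29, 0.0987) and CRELD2 (-0.32, 0.314), of which the last pair was not called. These are chaperones and a stress-induced protein of the endoplasmic reticulum, and the CANX call was kept under 16 of 26 alternative settings.

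ALDH1L2, a mitochondrial folate enzyme and ATF4 target, had the lowest interaction of the ATF4 list. At 4 h it read 6.92, 7.16, 6.39 and 7.07 in DMSO and 7.15, 6.83, 7.16, 6.52 and 7.02 at 468 nM. At 24 h it read 7.49, 7.5, 6.77 and 7.49 in DMSO and 5.42, 5.51, 5.36, 5.4 and 5.65 at 468 nM. All late treated arrays were below all late controls, the low DMSO replicate 3 included, and the early groups were mixed. The interaction was -1.90 ± 0.26 (adjusted p = 1.34e-05). Serine, proline and one-carbon enzymes chosen after their values were seen had interactions of -0.90 (PHGDH), -0.79 (PSAT1), -1.02 (PYCR1) and -1.05 (MTHFD2), and the glutamine carrier SLC1A5 had -1.14. The higher member was SLC38A2, another amino acid carrier (0.53, adjusted p = 0.0263), which missed the threshold without DMSO 4 h replicate 2 (0.0632), 468 nM 4 h replicate 4 (0.0509) or DMSO 24 h replicate 3 (0.0634). It also missed it with no filter (0.093), with quantile normalisation repeated (0.0594) and with only the 4 groups fitted (0.0549).

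Of the nucleolar ribosome biogenesis list 23 of 51 members were lower and 0 higher (median -0.46), 14 when arrays were centred on reference genes. NOP16, a nucleolar assembly protein, had -1.13 and TCOF1, the treacle protein of ribosomal RNA synthesis, -1.0. Of the cytosolic ribosomal proteins, the subunits themselves, 4 of 41 were lower, a share below the 12.7% of all genes, with a median of 0.01, and near-identical copies make single members of that list uncertain. The difference between both lists was not tested.

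FOSL1, an AP-1 subunit of the MAPK response, was late-only. It read 7.73, 7.71, 7.58 and 7.27 in DMSO and 7.33, 7.43, 7.52, 7.22 and 7.22 at 468 nM at 4 h. It read 7.32, 7.19, 7.2 and 6.98 in DMSO and 5.34, 5.68, 5.39, 4.98 and 5.64 at 468 nM at 24 h. Overlapping early groups became separate ones, with effects of -0.23 ± 0.15 and -1.76 ± 0.15 (interaction adjusted p = 1.81e-05). In its list, AP-1 and immediate early genes, 8 of 31 members were lower and 1, KLF6, higher (median -0.23), beside 12.7% and 10.8% of all genes. At 4 h 12 members of that list had risen and 4 had fallen, where 3.96% of all genes had risen and 6.95% had fallen. JUN, the main AP-1 partner, chosen after its values were seen, rose at both times (1.48 and 0.84) with an interaction of -0.64 that missed the test (adjusted p = 0.108) and passed it without DMSO 4 h replicate 4 (0.0386).

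The lowest late-only interactions by the naming rule, histones aside, were those of GIPC3, FAM216B, IL1RL1 and FYB1. GIPC3, a PDZ domain protein, had effects of 0.06 and -3.48, and FAM216B 0.05 and -3.47. IL1RL1, the receptor of interleukin-33, had -0.83 (adjusted p = 0.358) and -4.24, to a 24 h mean of 2.96 near the array floor, and FYB1, an adaptor of immune signalling, -0.17 and -3.18. CD44, a hyaluronan receptor, had 0.25 and -1.30, on a probe set with a low mean of 4.38 over all arrays. Its other probe set had a mean of 1.22. CD44 passed the intensity filter in 23 of 26 alternative settings and kept its interaction call in those.

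Late-only rises were led by genes of other kinds. DUSP6, the phosphatase that turns off ERK, read 8.54, 8.28, 8.59 and 8.52 in DMSO and 8.37, 8.42, 8.56, 8.47 and 8.23 at 468 nM at 4 h. It read 8.13, 8.26, 8.65 and 8.44 in DMSO and 9.78, 9.52, 9.66, 9.63 and 9.86 at 468 nM at 24 h. No treated array exceeded all controls at 4 h and every one did at 24 h. The interaction was 1.39 ± 0.14 (adjusted p = 2.32e-07). Its MAPK feedback list was divided, with 2 of 23 members higher and 4 lower (median 0.01), beside 10.8% and 12.7% of all genes. The largest rises by the naming rule were CALCOCO1, a selective autophagy receptor (1.95 ± 0.25), PBXIP1, a PBX-binding protein (1.92 ± 0.28), and SGIP1, an endocytic adaptor (1.92 ± 0.32).

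Primary cilium genes, which build and serve the sensory antenna of resting cells, had higher effects at 24 h. Of 34 measured members 16 had the higher effect at 24 h and 1 the lower (median 0.54), beside 10.8% of all genes higher. The count was 9 with no filter on low values, which tested all 40 members on the array. It was 8 among genes above a log2 of 7, where fewer members pass. WDR19, a retrograde intraflagellar transport protein, read 5.6, 5.63, 5.25 and 5.3 in DMSO and 5.74, 5.42, 5.82, 5.95 and 5.93 at 468 nM at 4 h. It read 4.87, 5.46, 5.57 and 5.6 in DMSO and 6.93, 6.83, 7.17, 6.4 and 7.25 at 468 nM at 24 h. The groups met at 4 h and were apart at 24 h (interaction 1.21 ± 0.24, adjusted p = 0.000582). BBS1 of the BBSome had 1.12, and KIF3A, the anterograde motor, and IFT88, of the transport train, chosen after their values were seen, had 1.02 and 1.06. The lower member was CC2D2A, of the ciliary transition zone (-0.86, adjusted p = 0.00879; 0.0508 when centred on reference genes).

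Lysosome and autophagy genes had 7 of 45 members higher and 2 lower (median 0.29), beside 10.8% and 12.7% of all genes. ASAH1, acid ceramidase, had 0.82 ± 0.14, SMPD1, acid sphingomyelinase, 0.98 ± 0.26, and GAA, acid alpha-glucosidase, 0.96 ± 0.26. In the p53 and growth arrest list 5 of 24 were higher and 6 lower, with a median of 0.12. YPEL3, linked to growth arrest, had the highest value at 2.26 ± 0.49, followed by KLHL24, a substrate adaptor of a ubiquitin ligase, at 1.47 ± 0.29. Histone-modifying enzymes had 6 of 57 higher, a share near the background, and 3 lower. EZH1, a methyltransferase of histone H3, had 1.42 ± 0.20, and SUV39H1, another, -0.82 ± 0.24, which missed the test with no filter on low values (0.0542).

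In growing genes the 4 h change was enlarged by 24 h. TXNIP, an inhibitor of thioredoxin and of glucose uptake, read 8.5, 7.76, 8.65 and 7.89 in DMSO and 9.04, 9.3, 9.3, 9.46 and 9.05 at 468 nM at 4 h. It read 8.1, 7.95, 8.18 and 7.79 in DMSO and 10.48, 10.98, 11, 10.76 and 10.66 at 468 nM at 24 h. Every treated array was above its controls at each time, further so at 24 h, with effects of 1.03 ± 0.18 and 2.77 ± 0.18 (interaction adjusted p = 2.17e-05). ARRDC4, its arrestin-family relative, had 0.73 and 2.11, as the DMSO arrays fell by 0.86 and the treated arrays rose by 0.52.

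IL7R, the receptor of interleukin-7, had the lowest interaction of the growing falls at -3.27 ± 0.40 (adjusted p = 3.19e-06). It read 7.52, 8.5, 7.23 and 8.42 in DMSO and 6.02, 6.46, 7.04, 6.09 and 6.77 at 468 nM at 4 h. At 24 h it read 7.93, 7.94, 7.14 and 7.15 in DMSO and 2.66, 3.39, 2.57, 2.81 and 2.68 at 468 nM. The groups were separate each time, and late values of 3.39 or less are close to the median probe set of an array (2.44 to 2.49), where signal is hard to tell from background. MAMDC2, an extracellular matrix protein, had -1.48 and -3.02, and CDC42EP1, an effector of CDC42, -0.90 and -2.34. The histone gene H2BC18 went from a mean of 2.01 in DMSO to 3.32 at 468 nM at 4 h, and from 2.0 to 5.89 at 24 h. Of the 4 groups compared, only 468 nM at 24 h had a mean above the log2 of 5 used as filter. H2BC18 thus entered the test through the group where it was high, and its call is no support for a rise. Its control means lie below the median probe set, so no fold is given, and MAMDC2 at 468 nM, with a mean of 2.40 at 24 h, lies there too. The count of 77 growing genes leaned on the 4 h arrays: it was 39 without DMSO 4 h replicate 3, 40, 45 and 48 without DMSO replicates 2, 1 and 4, and 50, 49 and 46 without 468 nM replicates 1, 3 and 5.

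Waning genes kept the sign of their early change at a smaller size. SERTAD1, a CDK4-binding regulator, read 6.51, 6.7, 6.38 and 6.79 in DMSO and 8.63, 8.84, 8.75, 8.41 and 8.55 at 468 nM at 4 h. It read 6.7, 6.73, 6.22 and 6.48 in DMSO and 7.0, 6.81, 7.38, 7.79 and 7.51 at 468 nM at 24 h. Groups stayed apart at both times but came close at 24 h, with effects of 2.04 ± 0.16 and 0.76 ± 0.16 (interaction adjusted p = 0.000236).

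TOB1, an antiproliferative adaptor of mRNA deadenylation, read 6.88, 6.48, 6.6 and 6.87 in DMSO and 8.28, 8.42, 8.35, 8.36 and 8.42 at 468 nM at 4 h. It read 7.41, 7.54, 7.32 and 7.1 in DMSO and 7.99, 8.05, 8.13, 7.83 and 7.9 at 468 nM at 24 h. The groups did not meet at either time, and the distance shrank from both sides, as the DMSO arrays rose by 0.64 and the treated arrays fell by 0.39. The interaction was -1.03 ± 0.17 (adjusted p = 0.000128). BAIAP2, an actin-membrane adaptor, had effects of 1.86 and 0.85, MKNK2, a kinase that phosphorylates eIF4E, 1.77 and 0.72, and TUFT1 1.77 and 0.78.

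ZHX2, a zinc finger and homeobox repressor, waned from a fall. Its values were 9.9, 9.71, 9.75 and 9.5 in DMSO and 8.12, 8.51, 8.26, 8.31 and 8.08 at 468 nM at 4 h. They were 9.52, 9.56, 9.36 and 9.65 in DMSO and 8.95, 9.21, 9.07, 8.79 and 8.84 at 468 nM at 24 h. All treated arrays were below all controls at both times, by less at 24 h, with effects of -1.46 ± 0.11 and -0.55 ± 0.11 (interaction adjusted p = 0.000106). GJD2, a gap junction protein, had -2.67 and -1.64.

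MYC was lower than DMSO at both times, by less at 24 h. It read 8.86, 8.9, 8.73 and 8.67 in DMSO and 7.57, 7.88, 7.8, 7.91 and 7.47 at 468 nM at 4 h. It read 9.0, 8.92, 8.73 and 8.83 in DMSO and 8.65, 8.09, 8.54, 7.88 and 8.51 at 468 nM at 24 h. Both times kept the groups apart, with 468 nM replicates 2 and 4 furthest below DMSO at 24 h. The interaction of 0.53 ± 0.19 stood at the threshold (adjusted p = 0.0428) and kept its call under 12 of 26 alternative settings. It was 0.132 with no filter on low values, 0.0543 with quantile normalisation repeated and 0.0799 with only the 4 groups fitted. It missed the threshold, at 0.0525 to 0.0862, without any one of 11 arrays: 468 nM 4 h replicates 1 and 5, DMSO 4 h replicates 1, 2 and 3, 468 nM 24 h replicates 1, 3 and 5, and DMSO 24 h replicates 2, 3 and 4.

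Other markers of the response had no called time difference. HEXIM1 rose by 1.67 ± 0.13 at 4 h and 1.30 ± 0.13 at 24 h (interaction -0.37, adjusted p = 0.135). BRD2, itself a BET gene, rose by 0.58 and 0.33 (interaction -0.25, adjusted p = 0.106), and the mean of its probe sets, several of them dim, gave 0.25 (adjusted p = 0.357) and called neither rise (0.925 at 4 h and 0.0817 at 24 h). IL6, an inflammatory cytokine, fell by 3.43 ± 0.59 and 3.71 ± 0.59 (interaction -0.28, adjusted p = 0.846). CCND1, the D-type cyclin, fell by 0.46 at 4 h and had -0.01 at 24 h (interaction 0.45, adjusted p = 0.0548). Its interaction passed the test without 468 nM 4 h replicate 2 (0.0121), DMSO 4 h replicate 2 (0.0136), 468 nM 24 h replicate 4 (0.0389) or 5 (0.0443), or DMSO 24 h replicate 4 (0.045). It also passed among genes above a log2 of 7 (0.0361), when centred on reference genes (0.0444), with the replicate block (0.0332) and with a trended, robust variance (0.0402), and its 4 h fall missed the test without DMSO 4 h replicate 1 (0.0787). Of the BET, P-TEFb and elongation list 4 of 31 members were higher and 1 lower (median 0.11), and of the NF-kB list 2 of 16 and 5 (median -0.20). Over all genes 10.8% were higher and 12.7% lower, so the shares of higher members lay near the background. The share of lower members lay below it in the BET list and above it in the NF-kB list, which was not tested.

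An interaction can come from the treated arrays, the controls or both. Over time 4852 genes (52.3%) were called between the 468 nM arrays and 486 (5.23%; 2.63% higher and 2.61% lower at 24 h) between the DMSO arrays. Of the 2184 interaction genes, 2047 changed over time in the treated arrays and 149 in the controls. In 55 genes the called DMSO change was larger than the treated one, HERPUD1, XBP1, TOB1 and ARRDC4 among them. DDIT4, an inhibitor of mTORC1 chosen after its values were seen, rose on both sides, by 1.46 in DMSO and by 0.60 at 468 nM. Its interaction of -0.86 (adjusted p = 0.0192) missed the threshold with no filter (0.0627) and when centred on reference genes (0.061). DMSO arrays at 24 h were compared only with DMSO arrays at 4 h, so time in culture and time with vehicle cannot be told apart.

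**Figure D4:**
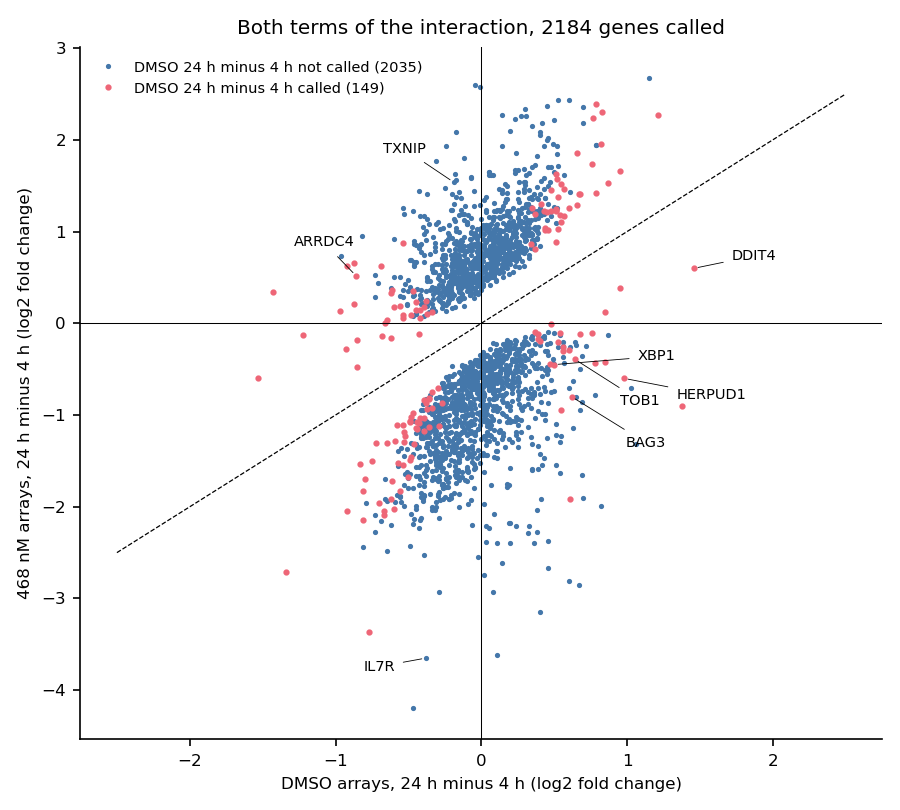
Change from 4 h to 24 h in DMSO arrays (horizontal, log2) and in 468 nM arrays (vertical, log2) for the 2184 genes with a called interaction, with the 149 genes whose DMSO change was called in red and the dashed line marking equal changes. Most genes spread along the vertical axis, and HERPUD1, XBP1, BAG3 and TOB1 lie at lower right, where DMSO rose and 468 nM fell.

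At 75 nM the same interaction was called for 3 genes (0.0323%), all higher, and for 635 at an unadjusted p under 0.05. The 75 nM and 468 nM interactions share their 8 DMSO arrays, so their values are given side by side with no correlation. The 3 genes were TBC1D2B, with 1.13 at 75 nM and 2.17 at 468 nM, ZHX2, with 0.95 and 0.90, and SH3RF2, a ubiquitin ligase, with 0.72 and 0.37 (its 468 nM call was kept under 11 of 25 alternative settings). The difference between doses, in which the DMSO arrays cancel, was called for 1083 genes (11.7%), 367 higher (3.95%) and 716 lower (7.71%). This difference uses the same 468 nM arrays that set the classes, so its counts within them are a description. It was called for 52 of 60 reversing, 53 of 77 growing, 804 of 1743 late-only, 53 of 181 early-only and 2 of 32 waning genes.

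By gene, SOX10 had an interaction of 0.38 at 75 nM (adjusted p = 0.736) and 1.31 at 468 nM, with a dose difference of 0.94 (adjusted p = 0.000865). CDC6 had -0.38 and -1.71 (dose difference -1.33, adjusted p = 2.8e-06), and CDCA8 -0.10 and -1.93 (-1.83, adjusted p = 0.000164). In the mitosis list the dose difference was lower for 66 of 70 members. IL7R had -0.73 and -3.27 (-2.54, adjusted p = 8.37e-05) and TXNIP 0.22 and 1.74 (1.52, adjusted p = 0.000133). Waning genes gave closer pairs: SERTAD1 had -0.97 and -1.28 (dose difference -0.31 ± 0.22, adjusted p = 0.389), and ZHX2 a dose difference of -0.05 ± 0.14 (adjusted p = 0.874). MYC had 0.40 and 0.53, a dose difference of 0.13 ± 0.18 (adjusted p = 0.701).

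**Figure D5:**
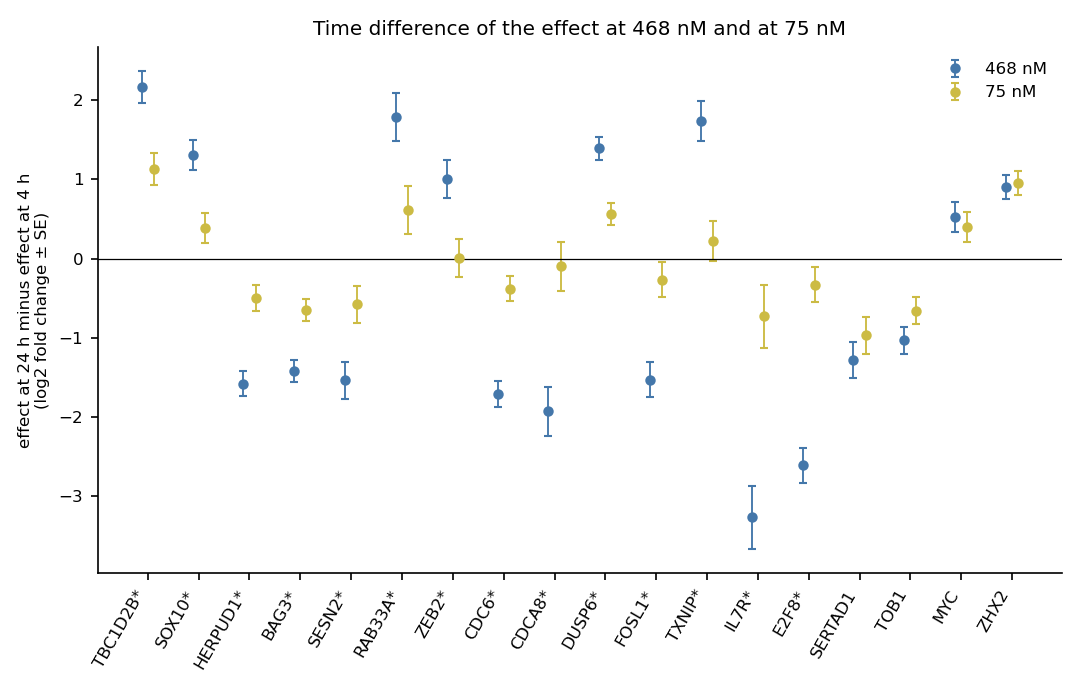
Interaction at 468 nM (blue) and at 75 nM (yellow) for 18 genes, as the effect at 24 h minus the effect at 4 h (vertical, log2 fold change, whiskers ± SE from the fit), with an asterisk on genes whose dose difference was called. The 75 nM values lie nearer to 0 for the first 14 genes, all with an asterisk, and close to the 468 nM values for SERTAD1, TOB1, MYC and ZHX2.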

How the data were processed

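Expression was measured in 28 samples of CHL-1 cells, each hybridised to 1 array, and 18 arrays enter the comparison described. Per the submitters' processing notes the authors used RMA, which corrects background, quantile-normalises and summarises probes; no version or annotation build is given in the sources used here. The deposited table holds linear intensities, for 53617 probe sets, which were converted to log2 here. Of these, 23871 named 1 gene symbol in the platform annotation, 1842 several and 27904 none; the probe set with the highest mean stood for each of 22357 genes. Symbols were updated through RefSeq gene identifiers.

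Groups come from the titles. Group means of all 6 groups over 28 arrays were fitted with limma 3.58.1 in R 4.3.3 (lmFit, eBayes, Benjamini-Hochberg over the 9285 genes tested), and the interaction was taken as a contrast. The number of arrays limits the precision. In the self-test on 9285 genes, the interaction recovered 49 of 100 genes changed by 0.75 (log2) and 89 of 100 changed by 1.5, and called 8 unchanged genes. Its noise was simulated as normal and independent between arrays. Only those genes were changed, a smaller share than the 23.5% called in the data, so recovery in the real fit can differ. Members, gene lists (35, and 5 marker lists) and motifs were chosen with earlier results of these data known. Named genes were a fixed set of BET response genes, the 5 largest interactions per class and direction with a group mean of at least 6, and the 4 largest per list; others are said to be chosen after their values were seen. Alternatives were the filter, the scaling, the arrays fitted, a replicate block, the variance model, the probe set rule, the call rule and leaving out each array. Replicate numbers here follow accession order and pair no arrays. A replicate block was made from the title codes, which run in series, the earliest of them without a DMSO array. Between groups, 66 pairs of arrays of the same series had correlations of -0.13 to 0.34 (median 0.10). The 260 pairs of other series had -0.32 to 0.26 (median -0.02). The labels state no pairing, so the main fit has no block, and a shared batch within a series remains possible. Promoter and microRNA sequences are RefSeq's, GRCh38.p14; 7506 of the 9285 genes matched a promoter.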

Additional observations from a re-analysis of the deposited data

Results flagged for a closer look

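A difference between times was tested gene by gene, and the 468 nM effect differed between 24 h and 4 h for 2184 genes, of which 60 were called at both times with opposite signs. The time difference itself differed between 468 nM and 75 nM for 1083 genes.

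Of 88 groups of arrays (22 genes whose values are printed, 4 groups each), 4 had 1 array far from the rest by Dixon's criterion, where chance gives about 1 in 20. BAG3 read 6.58 on DMSO 4 h replicate 4 against 6.23 to 6.28 on the other DMSO arrays of that time. CDC6 read 8.54 on DMSO 24 h replicate 1 against 8.76 to 8.79. ALDH1L2 read 6.77 on DMSO 24 h replicate 3 against 7.49 to 7.5. IL7R read 3.39 on 468 nM 24 h replicate 2 against 2.57 to 2.81. The interactions of these 4 genes kept their calls without each of these arrays.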

How the results depend on the processing

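The count of 2184 genes ran from 1903 to 2372 when any 1 of the 18 arrays was left out, and was 688 with an added 2-fold minimum. With no filter on low values 650 genes were higher, 32 reversing, 21 growing and 16 waning, with 15 nucleolar and 9 cilium members. Among genes above a log2 of 7, 112 were early-only, 55 had no call at either time and 8 cilium members were higher. Centring on reference genes gave 749 lower genes and 14 nucleolar, 7 heat shock and 6 unfolded protein response members. Fitting only the 4 groups gave 48 growing genes. Leaving out 1 array gave 39 to 97 growing genes and 7 to 11 unfolded protein response members. With an unadjusted p of at least 0.05 required at the other time, 164 genes were early-only and 1540 late-only. The cause of these changes was not tested, except that the filters change how many genes are tested.

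The replicate block called 2560 genes (1216 higher, 1344 lower), and 22 of 28 arrays correlated best with an array of their own series, a hint from the data and not from the design.

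Of 217 genes followed by name with a called interaction, 176 kept the call under all alternatives run. Signs turned only in genes with no call: BRD2 (0.25 with the mean of its probe sets) and IL6 (-0.67 to 0.11 when 1 array was left out, at 0.03 without 468 nM 4 h replicate 3, 0.06 and 0.02 without DMSO 24 h replicates 2 and 4, and 0.11 without DMSO 4 h replicate 3). Low signal limits IL7R, IL6, IL1RL1, MAMDC2, H2BC18 and CD44, and with this number of arrays changes of 0.75 or less may be missed. Of the 2184 genes with a called interaction, 322 had all 4 group means below a log2 of 6.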

Other observations

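Over all genes tested, 12.7% had a lower and 10.8% a higher effect at 24 h than at 4 h. Aminoacyl-tRNA synthetases, which charge tRNAs with amino acids, had 13 of 33 members lower and 2 higher (median -0.40), with the cytosolic enzymes YARS1 (-1.13) and IARS1 (-0.84) among the lower. Both higher members, WARS2 (0.46) and NARS2 (0.50), are mitochondrial enzymes chosen after their values were seen, and their calls were kept under 16 and 11 of 26 alternative settings. With arrays centred on reference genes the list had 7 lower members. Mitochondrial ribosomal proteins had 11 of 63 lower and 2 higher (median -0.22), and 7 lower when centred. Proteasome subunits had 5 of 38 lower, near the share of all genes, and 1 higher (median -0.20), with 2 lower when centred. Oxidative phosphorylation subunits had 1 of 37 lower, below that share, and 0 higher (median 0.04).

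Genes of glycolysis and hypoxia divided, with 5 of 20 lower and 3 higher and a median of -0.08 that became 0.03 when centred on reference genes. HK2, the first enzyme of glycolysis, had -1.23 and LDHA, which makes lactate, -0.74, both late-only. Of 10 measured genes of the undifferentiated melanoma state 4 were lower and 0 higher (median -0.46), among them NT5E, an ecto-enzyme that makes adenosine (-1.47). The melanocyte lineage list had 3 of 11 higher and 2 lower (median 0.34), with SOX10 and ZEB2 among the higher. TEAD4, a partner of YAP, had -1.42, and IGF1R, the receptor of insulin-like growth factor, 0.96.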
